A study of Mus musculus with 14 samples.

Results

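Loss of Hspb8 was compared between 2 states of the mouse left ventricle by subtracting its effect in basal hearts from its effect after 3 days of pressure overload. For every gene the value is the knockout (KO) minus wild-type (WT) difference after transverse aortic constriction (TAC) minus the same difference in basal hearts, on the log2 scale, and is called the difference below. All 14 arrays entered it, and 12261 of the 18194 annotated genes lay above the filter on low values and were tested. A negative difference means that the KO level, set against WT, was lower after TAC than in basal hearts. A shift shared by all arrays of a condition cancels in it, and a shift of only some of them does not.

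The arrays (Affymetrix Mouse430_2) measured left ventricular RNA of male C57BL/6 mice, either WT or KO for Hspb8, the gene of the small heat shock protein Hsp22. There were 3 WT and 3 KO arrays from hearts under no pressure overload (basal), and 4 WT and 4 KO arrays from hearts after TAC, an operation that narrows the aorta and raises the load on the left ventricle. Sham operation is in no label, and load and operation cannot be told apart here. How Hspb8 was removed, how many KO lines there were and how old the mice were is not given in the sources used. Nothing labels the arrays as separate animals, and p-values then measure the spread between these samples alone, which may be technical.

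Hsp22 is a small heat shock protein of muscle that holds misfolded proteins and works with the co-chaperone Bag3 and with Hsp70 in their removal. Interferons act through STAT transcription factors, which bind the gamma-activated sequence (GAS) or, with an IRF partner, the interferon-stimulated response element (ISRE), and switch on guanylate-binding proteins, immunity-related GTPases, antigen presentation and antiviral genes. Heat shock factors bind the heat shock element (HSE) and switch on the Hsp70, Hsp90, Hsp60 and Hsp110 chaperones and their co-chaperones.

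Array medians (log2) lay between 5.70 and 5.80, and the median was 5.70 or 5.71 in all 4 TAC WT arrays against 5.76 in 3 of 4 TAC KO arrays. Pairs of arrays within a group had r across genes of 0.983 to 0.987 (basal WT), 0.986 to 0.988 (basal KO), 0.918 to 0.986 (TAC WT) and 0.970 to 0.991 (TAC KO). TAC WT 3 stood farthest from its group mean, by a root mean square of 0.417. By the array names, basal KO 3 came from a different day to the rest of the basal arrays, and the TAC arrays from a separate run. The 3' minus 5' control signal of Actb, a measure of RNA integrity, lay between 0.23 and 0.44 in all arrays. On the pair of Hspb8 probe sets that read 10.26 or more in every WT array, no KO array exceeded 5.92, and their differences were 0.06 (SE 0.39) and 0.18 (SE 0.33), which are set by KO values near or below the filter value of 5.75. The remaining Hspb8 probe set, of a type that may also match related transcripts, had a difference of 0.49 (SE 0.23, unadjusted p = 0.0491, limma).

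Among gene lists with at least 5 measured members, interferon-responsive genes and heat-shock-factor-induced chaperones had the most negative median differences, yet no single gene passed. In limma 0 of 12261 genes (0%) had an adjusted p under 0.05, and the smallest adjusted p was 0.464. At an unadjusted p under 0.05 there were 585 genes with a negative difference (4.77%) and 367 with a positive one (2.99%), together 7.76%. That split moved with the scaling: 61.4% of these genes were negative as deposited, 46.2% after quantile normalization (409 negative, 477 positive), 46.8% after quantile normalization within each condition and 79.1% after median centring of the arrays (865 negative, 229 positive). The median over all genes was -0.0275 as deposited and moved between -0.0833 and 0.0227 under these scalings. Without TAC WT 3 the positive count was 597. The median SE was 0.209 and the median half-width of the 95% interval 0.449. For the gene of median precision a difference thus had to exceed 0.449 for its unadjusted interval to leave out 0.

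Among the 585 negative genes the KO effect was -0.26 after TAC and 0.27 in basal hearts in the median, and 565 of them (96.6%) had KO effects of opposite sign in the 2 conditions. Among the 367 positive genes the medians were 0.21 and -0.28, with opposite signs in 332 (90.5%). Over all genes 52.8% had opposite signs, and both effects enter the difference, so these shares describe the selection. The TAC part was the larger one in 46.8% of the negative and 39% of the positive genes. KO against WT after TAC passed for 1 gene (0.00816%), the elastic fibre protein gene Fbln5, and at an unadjusted p under 0.05 there were 584 lower (4.76%) and 414 higher (3.38%). The count past the adjusted p was 2 without TAC WT 1, 107 without TAC WT 3, 19 without TAC WT 4, 3 without TAC KO 4, and 0 without TAC WT 2, TAC KO 1, TAC KO 2 or TAC KO 3. In basal hearts 0 genes passed (0%), with 295 lower (2.41%) and 412 higher (3.36%) at an unadjusted p under 0.05. Hspb8 itself is not in these counts of passing genes, because the probe set that may match related transcripts has its highest mean and stands for it. On its other probe sets the KO effect was -6.84 and -5.48 in basal hearts (adjusted p = 3.31e-08 for each, over all probe sets, limma) and -6.78 and -5.29 after TAC.

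**Figure D1:**
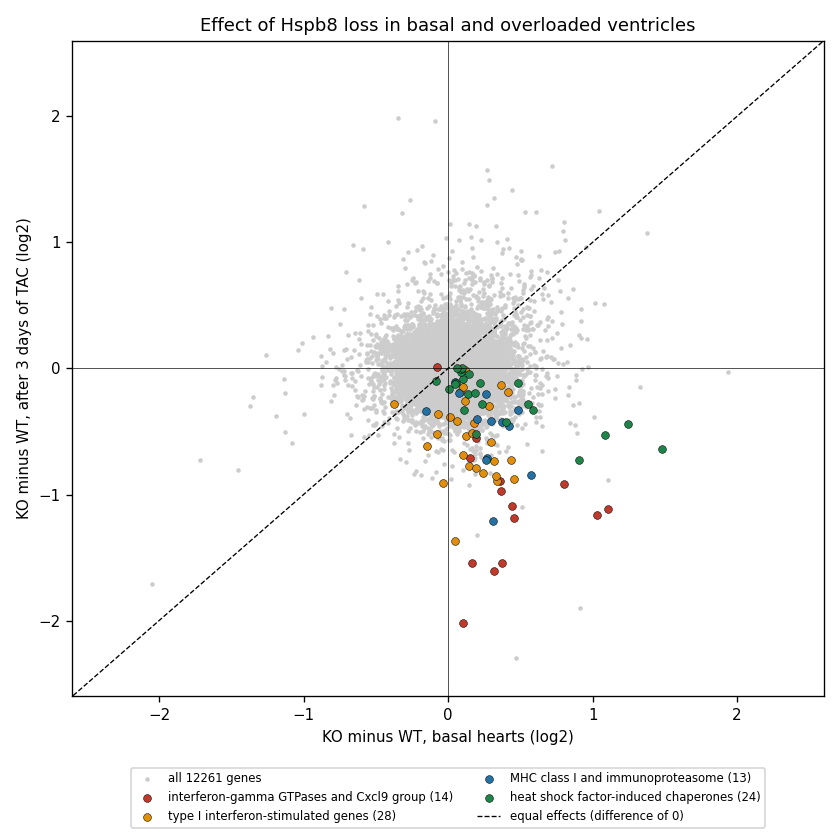
Each point is 1 gene, with KO minus WT in basal hearts on the horizontal axis and KO minus WT after TAC on the vertical axis (both log2), and the dashed line marks equal effects. Of the interferon-gamma group 13 of 14 genes lie below the line, as do all 24 chaperones, the first mostly through the TAC comparison and the chaperones with the largest values mostly through the basal one.

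Promoter stretches of leading interferon-responsive genes are shown because they hold ISRE or GAS, as some but not all of the genes described next do. The windows are RefSeq promoters (GRCm38.p6, 250 bases before to 50 after each start, on the gene's strand), printed here only before the start. They were searched on both strands for GAS (TTCNNNGAA) and for ISRE (GAAA, any 2 bases, GAAA). ISRE was in the windows of 7 of 12 interferon-gamma genes (58.3%) with a window, 10 of 20 type I genes (50%) and 3 of 10 MHC class I genes (30%), against 3.50% of the 9862 tested genes with a window. GAS was in 41.7%, 30% and 10% of the same lists, against 8.13%. These shares are over whole windows. Before the start alone, ISRE was in 7 interferon-gamma, 7 type I and 1 MHC class I genes, against 2.97% of the tested genes, and Cxcl9, Psmb9, Psmb10 and Oasl2 held neither motif there. Capitals mark the matches, which are ISRE in Gbp2 (chr3:142620574-142620643), Gbp3 (2 overlapping matches, chr3:142559969-142560043), B2m (chr2:122147518-122147587) and Ifit1 (2 matches, chr19:34640755-34640843), and GAS followed by ISRE in Irgm2 (chr11:58214872-58214952), all on the plus strand.
Gbp2: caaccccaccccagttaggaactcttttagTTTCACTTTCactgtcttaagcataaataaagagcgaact
Gbp3: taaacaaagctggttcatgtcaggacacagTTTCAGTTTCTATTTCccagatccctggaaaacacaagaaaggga
Irgm2: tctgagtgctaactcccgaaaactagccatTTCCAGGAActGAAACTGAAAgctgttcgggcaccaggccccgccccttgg
B2m: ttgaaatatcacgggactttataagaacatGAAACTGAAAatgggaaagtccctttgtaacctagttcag
Ifit1: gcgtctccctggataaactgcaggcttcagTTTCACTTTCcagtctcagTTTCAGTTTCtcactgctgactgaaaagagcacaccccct
A match is a description of these letters and not of a bound site. In Gbp2, Gbp3 and Ifit1 the motif reads in the opposite orientation to Irgm2 and B2m.

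The group of interferon-gamma GTPases and Cxcl9 had 14 of its 26 genes measured, and 10 of them (71.4%) had a negative difference at an unadjusted p under 0.05 against 4.77% of all genes, with none positive. The median difference was -1.67 (quartiles -1.92 and -1.28). It was made of a median KO effect of -1.10 after TAC and 0.36 in basal hearts. Read the other way, the median TAC response was 1.33 in WT and -0.39 in KO, where run and operation cannot be told apart within each response. The 13 genes below 0 were the same number under all 3 other scalings, and Irf8, a transcription factor of myeloid cells, was the exception with 0.09. The count of 10 was 5 without basal WT 2, 3 without basal KO 1 and 6 without TAC WT 2.

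Gbp2, a guanylate-binding GTPase of the interferon-gamma response, read 7.89, 7.30 and 7.90 in basal WT, 7.82, 8.02 and 8.36 in basal KO, 10.54, 10.43, 9.79 and 8.13 in TAC WT and 8.29, 8.24, 7.88 and 8.30 in TAC KO. TAC WT 1, 2 and 3 were the 3 highest arrays, while TAC WT 4 lay among the TAC KO arrays and near the basal ones. Its difference was -1.92 (SE 0.61, 95% interval -3.24 to -0.59, unadjusted p = 0.00782, limma). Its other probe set gave -2.01 (SE 0.56). Gbp3, a second guanylate-binding protein, read 6.77, 6.19 and 6.71 in basal WT, 6.97, 6.75 and 6.90 in basal KO, 9.46, 9.42, 8.79 and 6.91 in TAC WT and 6.95, 7.34, 6.72 and 7.14 in TAC KO. TAC WT 1, 2 and 3 were again the highest arrays, with TAC WT 4 inside the TAC KO range. Its difference was -1.92 (SE 0.65, unadjusted p = 0.0107, limma).

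Irgm2, an immunity-related GTPase that regulates other GTPases of its family, read 7.0, 7.01 and 6.97 in basal WT, 9.46, 7.24 and 7.60 in basal KO, 9.30, 9.97, 8.72 and 7.02 in TAC WT and 7.54, 8.21, 7.32 and 7.48 in TAC KO. Here every basal KO array was above every basal WT array, and basal KO 1 reached the level of the high TAC WT arrays. The difference was -2.22 (SE 0.84, unadjusted p = 0.0203, limma), and it was -1.54 without basal KO 1. Igtp, a GTPase of the same family, had 10.41, 8.35 and 8.73 in basal KO against 8.26, 8.07 and 8.07 in basal WT, and a difference of -2.19 (SE 0.91). Irgm1, which acts in autophagy of pathogens, had 9.59, 9.88, 9.46 and 8.20 in TAC WT against 8.38, 8.58, 8.18 and 8.41 in TAC KO, and a difference of -1.25 (SE 0.46, unadjusted p = 0.0161, limma). In all 3 GTPases TAC WT 4 was the lowest TAC WT array.

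Cxcl9, a chemokine that draws activated T cells, read 6.77, 6.64 and 6.74 in basal WT, 7.28, 6.16 and 7.03 in basal KO, 8.89, 9.08, 8.37 and 5.85 in TAC WT and 6.22, 6.24, 6.01 and 5.65 in TAC KO. All TAC KO arrays lay below every basal WT array, as did TAC WT 4. Its difference was -2.12 (SE 0.82, unadjusted p = 0.0220, limma), with a KO effect of -2.02 after TAC and 0.11 in basal hearts. Cxcl10, a related chemokine, had a different array order, with 5.82, 6.75, 8.23 and 6.30 in TAC WT and 5.80, 6.41, 6.11 and 5.93 in TAC KO. Its difference was -0.87 (SE 0.57).

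**Figure D2:**
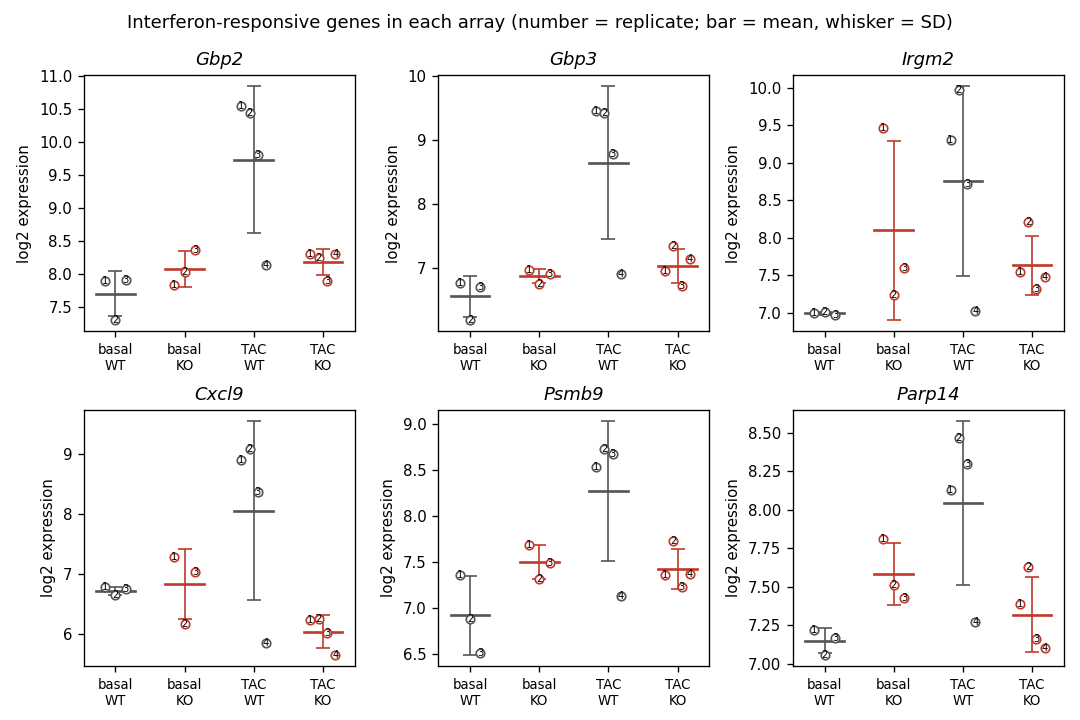
Log2 expression of 6 interferon-responsive genes in each array by group, where points carry the replicate number, bars are means and whiskers SD (3 basal and 4 TAC arrays a group). TAC WT 4 lies within or below the TAC KO range in all 6 panels, as at 8.13 against 7.88 to 8.30 for Gbp2.

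The calls in these genes turned on TAC WT 4. Without it 8 genes passed with an adjusted p under 0.05, and 7 of them are interferon-responsive: Gbp2 (-2.45, adjusted p = 0.0139), Gbp3 (-2.50), Cxcl9 (-2.86), the GTPase Ifi47 (-1.80), Parp14 (-1.41), Psmb9 (-1.80) and Tap1 (-1.42, adjusted p = 0.0286). The 8th was the histone deacetylase gene Hdac9 (-1.02, adjusted p = 0.0499). With all arrays the differences of Ifi47, Tap1 and Hdac9 were -1.34, -0.99 and -0.86. The other kept probe set of Hdac9 gave -0.22 (SE 0.19) with all arrays. Over all alternatives the adjusted p of Gbp2 ran from 0.0139 to 0.854 and that of Cxcl9 from 0.0139 to 0.857. Without TAC WT 4 and basal KO 1 together 3 genes passed, and the median difference of the interferon-gamma group was -2.01, with 12 members at an unadjusted p under 0.05. Leaving out TAC WT 1 in place of TAC WT 4 gave 1 passing gene, the peptide-amidating enzyme gene Pam (1.73, adjusted p = 0.0457). With all arrays the difference of Pam was 1.42.

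Of the type I interferon-stimulated genes 28 of 34 were measured, 11 of them (39.3%) had a negative difference at an unadjusted p under 0.05 against 4.77% of all genes, and none a positive one. The median difference was -0.64, and 27 of 28 lay below 0 under the deposited and all 3 other scalings. The count of 11 was 4 without basal WT 2 or basal KO 1, 5 without TAC KO 1, 6 without basal KO 3, TAC WT 2, TAC WT 3 or TAC KO 3, 7 without TAC KO 4, and 21 without TAC WT 4. Parp14, an ADP-ribosyltransferase, read 7.22, 7.06 and 7.17 in basal WT, 7.81, 7.51 and 7.43 in basal KO, 8.13, 8.47, 8.30 and 7.27 in TAC WT and 7.39, 7.63, 7.16 and 7.10 in TAC KO. Every basal KO array lay above every basal WT array, and after TAC the groups met only through TAC WT 4. Its difference was -1.16 (SE 0.33, 95% interval -1.86 to -0.45, unadjusted p = 0.00358, limma).

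The antiviral effectors varied in the same way among TAC WT arrays. Ifit1, which binds foreign RNA caps, read 7.62, 8.20, 7.85 and 6.39 in TAC WT and 6.65, 6.98, 6.52 and 6.41 in TAC KO, with a difference of -1.33 (SE 0.48). Rsad2, the antiviral enzyme viperin, read 9.93, 9.85, 9.68 and 8.60 against 8.88, 8.75, 8.55 and 8.30, with -1.24 (SE 0.45). Oasl2, of the oligoadenylate synthetase family, read 8.37, 8.59, 8.92 and 7.0 against 6.92, 7.36, 6.62 and 6.52, with -1.41 (SE 0.52). In each of them TAC WT 1, 2 and 3 were above all TAC KO arrays and TAC WT 4 was not. Trim30a was the member above 0, with a difference of 0.09, and it turned sign when the mean of its probe sets was taken (-0.31).

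Antigen presentation by MHC class I and the immunoproteasome had 13 of 17 genes measured, and 7 (53.8%) had a negative difference at an unadjusted p under 0.05 against 4.77% of all genes. All 13 lay below 0 under the 4 scalings, with a median of -0.79. The count of 7 was 2 without basal WT 2, basal KO 1, TAC WT 1, TAC WT 2 or TAC KO 3, 3 without TAC WT 3 or TAC KO 4, and 4 without basal WT 1, basal WT 3, basal KO 3 or TAC KO 1. Psmb9, a catalytic subunit of the immunoproteasome, read 7.36, 6.88 and 6.51 in basal WT, 7.68, 7.31 and 7.49 in basal KO, 8.53, 8.73, 8.67 and 7.13 in TAC WT and 7.35, 7.73, 7.23 and 7.37 in TAC KO. TAC WT 4 was the lowest array after TAC, and the other 3 TAC WT arrays were above all KO arrays. The difference was -1.42 (SE 0.46, unadjusted p = 0.00823, limma).

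Psmb10, another immunoproteasome subunit, read 10.39, 10.40, 10.43 and 9.87 in TAC WT against 10.03, 9.74, 9.95 and 9.68 in TAC KO, and 10.45, 9.86 and 9.70 in basal KO against 9.57, 9.70 and 9.63 in basal WT. Its difference was -0.79 (SE 0.25, unadjusted p = 0.00770, limma). B2m, the light chain of MHC class I, had a difference of -0.82 (SE 0.37), of which 0.49 was the basal KO effect and -0.33 the KO effect after TAC. Tap2, a subunit of the peptide transporter, had -0.71 (SE 0.30). The constitutive proteasome did not share these values, since 0 of its 33 measured subunits reached an unadjusted p under 0.05 and their median was 0.03. MHC class II genes also had 0 of 6, with a median of -0.07.

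Immune cell markers in the same arrays are given beside these values. The mean of the 25 of 25 measured macrophage markers was 7.77 to 8.14 in basal WT, 8.24 to 8.32 in basal KO, 8.72 to 10.69 in TAC WT and 9.73 to 9.98 in TAC KO, and TAC WT 4 was at 9.22, inside its group. Their median difference was 0.08, with 1 positive and 0 negative members at an unadjusted p under 0.05. Of 25 T, B and NK cell markers only 7 were above the filter, and Cd3d, Cd3g, Nkg7, Gzmb, Prf1, Ncr1 and Ifng were not. The mean of those 7 was 6.57 to 6.62 in basal WT, 6.49 to 6.66 in basal KO, 6.32 to 6.49 in TAC WT and 6.30 to 6.61 in TAC KO. The mean of the 6 MHC class II genes was 7.94 to 8.70 in basal WT, 8.51 to 9.13 in basal KO, 8.05, 8.32, 9.27 and 7.38 in TAC WT and 8.06 to 9.34 in TAC KO, again with TAC WT 4 lowest. In bulk ventricle fewer cells of a type and less RNA per cell cannot be told apart, and the part of immune cells in the interferon values was not tested.

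Atrial markers also separated TAC WT 4. The mean of 10 of 11 measured atrial markers was 10.21 to 10.50 in basal WT, 9.63, 8.41 and 10.85 in basal KO, 8.83, 9.38, 8.59 and 7.18 in TAC WT and 8.85, 7.22, 8.23 and 8.82 in TAC KO. TAC WT 4 and TAC KO 2 were the lowest arrays. The mean of the interferon-gamma list was 7.24 in TAC WT 4 and 8.80 to 9.56 in the other TAC WT arrays. It was 7.92 in TAC KO 2 and 7.40 to 7.70 in the other TAC KO arrays. The median atrial difference was 0.61, with all 10 members above 0 as deposited and 9 after median centring. Only Dbh, which makes noradrenaline, reached an unadjusted p under 0.05, at 0.59 (SE 0.18). The part of atrial tissue in the other values was not tested.

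Chaperones of the heat shock factor list formed the other group with low values, and here the basal and TAC parts were of similar size in the median. Of 27 genes 24 were measured, 7 (29.2%) had a negative difference at an unadjusted p under 0.05 against 4.77% of all genes, and none a positive one. The median difference was -0.36, from a KO effect of 0.165 in basal hearts and -0.18 after TAC. All 24 lay below 0 as deposited and after median centring, and 22 after either quantile normalization. The count was between 6 and 10 with any 1 array left out, and it was 3, with a median of -0.22, without TAC WT 3 and basal KO 3 together. The list mean was 10.43 to 10.75 in basal WT, 11.10, 10.55 and 11.24 in basal KO, 10.53, 11.03, 11.12 and 10.73 in TAC WT and 10.54 to 10.72 in TAC KO, so that basal KO 1 and KO 3 were high and basal KO 2 was not. Basal KO 3 is the basal array from a different day, and the part of that day in these values was not tested.

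Hspa4l, an Hsp110-class partner of Hsp70, read 9.81, 9.65 and 9.49 in basal WT, 10.09, 9.94 and 10.13 in basal KO, 9.64, 9.47, 9.22 and 9.31 in TAC WT and 9.07, 9.03, 9.18 and 8.66 in TAC KO. The KO arrays were all above WT in basal hearts and all below WT after TAC. Its difference was -0.83 (SE 0.20, 95% interval -1.25 to -0.41, unadjusted p = 0.000937, limma). Hsph1, the main Hsp110, read 10.14, 9.63 and 10.08 in basal WT, 11.00, 10.27 and 11.29 in basal KO, 9.96, 10.00, 10.30 and 9.04 in TAC WT and 9.29, 9.02, 9.20 and 8.89 in TAC KO. Basal groups did not overlap, and after TAC only TAC WT 4 lay inside the KO range. Its difference was -1.63 (SE 0.40, unadjusted p = 0.00116, limma).

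St13, a co-chaperone that links Hsp70 and Hsp90 and that entered among the 10 genes with the smallest p, read 10.21, 10.23 and 10.14 in basal WT, 10.45, 10.44 and 10.44 in basal KO, 10.35, 10.43, 10.49 and 10.21 in TAC WT and 10.12, 10.14, 10.10 and 10.09 in TAC KO. Its groups did not overlap in either condition, in opposite order, and the difference was small in size, -0.51 (SE 0.12, unadjusted p = 0.000947, limma). Its 2 other kept probe sets gave -0.14 (SE 0.18) and -0.17 (SE 0.17), so the value rests on 1 probe set. The 4 other kept probe sets of Hspa4l gave -1.02 to -0.53. Chordc1, an Hsp90 co-chaperone, had a difference of -0.92 (SE 0.29), and Dnajb1, the Hsp40 partner of Hsp70, had -1.69 (SE 0.59). Dnajb1 read 11.03, 9.51 and 10.91 in basal KO against 9.42, 8.63 and 9.66 in basal WT, and the TAC groups overlapped.

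The inducible Hsp70 gene Hspa1a had the largest negative value of the list and the widest spread. It read 8.39, 6.91 and 7.73 in basal WT, 10.27, 6.48 and 10.72 in basal KO, 6.20, 9.86, 8.09 and 6.51 in TAC WT and 7.73, 6.82, 6.87 and 6.69 in TAC KO. Basal KO 1 and KO 3 were high and basal KO 2 was below all basal WT arrays. The difference of -2.12 (SE 1.36, 95% interval -5.04 to 0.81) was not separated from 0.

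The mitochondrial chaperonin pair Hspe1 and Hspd1, which encode Hsp10 and Hsp60, had smaller values with little spread, -0.44 (SE 0.16) and -0.34 (SE 0.15). Their shared upstream stretch is printed because the RefSeq windows of both genes hold it, with the HSE. It lies at chr1:55088029-55088106 (GRCm38.p6, RefSeq, plus strand, read toward Hspe1), and capitals mark 2 overlapping matches of HSE (GAA, TTC and GAA in turn, with any 2 bases between them, both strands).
Hspe1: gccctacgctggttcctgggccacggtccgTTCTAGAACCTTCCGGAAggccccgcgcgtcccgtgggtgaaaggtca
HSE was found in the whole window of 4 of 22 chaperones (18.2%) against 0.598% of the tested genes with a window. Before the start alone only Hspe1 and Hspd1 held it, through this shared stretch. Hspe1 read 12, 12.06 and 12.02 in basal WT, 11.88, 12.28 and 12.25 in basal KO, 12.27, 12.12, 12.36 and 12.05 in TAC WT and 11.84, 11.76, 11.97 and 11.91 in TAC KO. After TAC every KO array was below every WT array on this probe set. The other kept probe set of Hspe1 gave -0.29 (SE 0.18), and on it the TAC groups overlapped.

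**Figure D3:**
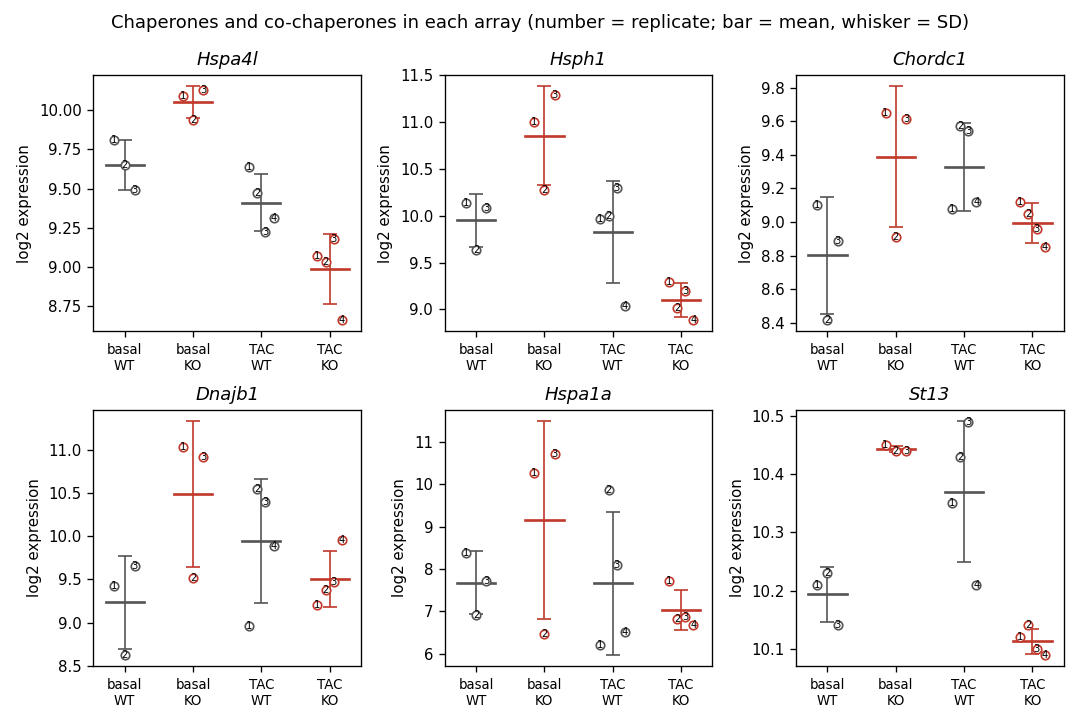
Log2 expression of 5 heat shock factor-induced chaperones and St13 in each array by group, where points carry the replicate number, bars are means and whiskers SD (3 basal and 4 TAC arrays a group). Basal KO 1 and KO 3 are high for Dnajb1 and Hspa1a (10.27 and 10.72 for Hspa1a) while basal KO 2 is not, and the KO arrays of Hspa4l and St13 change sides of WT between the conditions.

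Small heat shock proteins and the partners of Hsp22 had values near 0 on the probe sets that stand for them. Of 13 small heat shock proteins and members of the Hspb8-Bag3 complex, all measured, 0 reached an unadjusted p under 0.05 in either direction, and their differences ran from -0.32 to 0.32 with a median of -0.01. Bag3, the co-chaperone that binds Hsp22, had -0.15 (SE 0.22, 95% interval -0.62 to 0.31). Hspa8, the constitutive Hsp70, had -0.32 (SE 0.18) on the probe set with the highest mean. Its 3 other kept probe sets gave -0.41 (SE 0.21), -0.91 (SE 0.35, unadjusted p = 0.0217, limma) and -2.30 (SE 0.66, unadjusted p = 0.00364), the last with KO effects of 1.39 in basal hearts and -0.91 after TAC. The probe sets of Hspa8 thus disagree in size. Over the 23 kept probe sets of the list, 2 were negative at an unadjusted p under 0.05 and the median was -0.05. Of 28 genes of the unfolded protein response 2 had negative values at an unadjusted p under 0.05, the stress transcription factor Ddit3 (-0.70, SE 0.29) and the ubiquitin ligase Syvn1 (-0.50, SE 0.22), a share of 7.14% near the 4.77% of all genes, and the median was -0.21.

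Genes with little spread between arrays led the ranking by p. In the negative direction the first was Nlk, a kinase of the Wnt and Notch pathways, which read 8.29, 7.89 and 7.99 in basal WT, 8.76, 8.53 and 8.74 in basal KO, 8.72, 8.96, 9.13 and 8.96 in TAC WT and 8.71, 8.57, 8.65 and 8.70 in TAC KO. KO arrays were above all WT arrays in basal hearts and below all of them after TAC, and the KO level was nearly the same in both conditions. Its difference was -0.91 (SE 0.17, 95% interval -1.27 to -0.54, unadjusted p = 0.000125, limma). Mtx3, a metaxin of the mitochondrial outer membrane, read 6.75, 6.36 and 6.53 in basal WT, 7.07, 7.48 and 7.30 in basal KO, 7.64, 7.88, 7.56 and 7.54 in TAC WT and 7.41, 7.58, 7.29 and 7.40 in TAC KO. Its basal groups did not overlap and its TAC groups did. The difference was -0.97 (SE 0.19), while its other kept probe set gave -0.26 (SE 0.19), so the probe sets disagree in size.

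Dmxl1, a regulator of the vacuolar proton pump, read 7.81, 7.35 and 7.66 in basal WT, 7.85, 7.95 and 7.90 in basal KO, 8.59, 8.77, 8.58 and 8.58 in TAC WT and 8.16, 8.21, 8.04 and 8.07 in TAC KO. The groups did not overlap in either condition and their order turned. Its difference was -0.80 (SE 0.16, unadjusted p = 0.000160, limma). Tm2d1 (-0.57, SE 0.12) and the zinc finger gene Zbtb43 (-0.64, SE 0.14) had the same form on the probe sets that stand for them. Their other kept probe sets gave 0.15 (SE 0.22) and -0.01 (SE 0.16), so the turned order was seen on 1 probe set of each. For Nlk the other 2 gave -0.41, with groups that overlapped in both conditions, and -0.57, with a basal KO effect of -0.13. The turned order of Nlk was thus also seen on 1 probe set. Ormdl1, an inhibitor of sphingolipid synthesis (-0.72, SE 0.17), the mesenchymal homeobox gene Prrx1 (-0.61, SE 0.14) and Trim65 (-0.72, SE 0.16) completed the 10 with Hspa4l and St13. In Trim65 the basal KO arrays, at 6.23, 6.20 and 6.07, were above all others, and the KO effect after TAC was -0.04.

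Turned order of this kind, with KO above WT in every basal array and below in every TAC array, was met by 20 genes (0.163% of those tested), and the reverse by 15 (0.122%). Set beside that, 6.13% of genes had every basal KO array below WT and 7.46% above, while after TAC 2.30% were all below and 1.69% all above. Both counts are near those that unrelated separations at these shares would give. Nlk, Dmxl1, Hspa4l, St13 and Tmem37 were picked by a small p of the difference itself, so their turned order describes the selection. Among the 20 were Mef2c and Tsc1, named after their values were seen. Mef2c, a transcription factor of cardiac muscle, read 9.58, 9.49 and 9.30 in basal WT, 9.81, 9.61 and 9.91 in basal KO, 10.03, 10.24, 9.83 and 10.01 in TAC WT and 9.66, 9.78, 9.67 and 9.32 in TAC KO. Its difference was -0.74 (SE 0.19, unadjusted p = 0.00163, limma), and its 4 other kept probe sets gave -0.49 to -0.30. On each of these others the basal KO and WT arrays overlapped. Tsc1, an inhibitor of mTORC1, had -0.50 (SE 0.15).

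In the positive direction the first was Tmem37, a subunit related to those of calcium channels, which read 8.25, 7.90 and 7.86 in basal WT, 7.69, 7.22 and 7.29 in basal KO, 7.16, 6.95, 7.44 and 7.18 in TAC WT and 7.72, 7.90, 7.88 and 7.47 in TAC KO. KO arrays were below WT in basal hearts and above WT after TAC, with no overlap. Its difference was 1.16 (SE 0.22, 95% interval 0.68 to 1.65, unadjusted p = 0.000155, limma). Fbln5, which guides elastic fibre assembly, read 9.06, 8.66 and 8.95 in basal WT, 9.21, 9.17 and 8.78 in basal KO, 8.64, 8.65, 8.56 and 8.54 in TAC WT and 9.48, 9.61, 9.44 and 9.69 in TAC KO. Basal groups overlapped and TAC groups lay far apart. The KO effect was 0.16 in basal hearts and 0.96 after TAC, where it passed (adjusted p = 0.0163, limma), and the difference was 0.79 (SE 0.18, unadjusted p = 0.000592).

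The mechanosensitive channel gene Piezo2 (0.54, SE 0.13) and the surface glycoprotein gene Cd99 (0.61, SE 0.15) had KO below WT in every basal array and above in every TAC array. The probe set that stands for Cd99 is of the type that may also match related transcripts. Of its other kept probe sets, that with 0.55 (SE 0.16) had the same order. On that with 0.37 (SE 0.14) the basal groups overlapped. The cation channel gene Trpm2 (0.67, SE 0.16), the anchoring protein gene Akap4 (0.74, SE 0.16), Shisal1 (0.91, SE 0.22), 2010109A12Rik (0.72, SE 0.17) and 4930447F24Rik (0.68, SE 0.17) were also among the 10 with the smallest p. The other kept probe sets of Shisal1 and 4930447F24Rik gave 0.01 (SE 0.17) and -0.22 (SE 0.15), so these values rest on 1 probe set each. Shisal1 drew on the basal arrays, where KO read 6.18, 6.56 and 6.65 against 7.26, 7.06 and 7.45 in WT, and its KO effect after TAC was 0.12. Piezo2, Akap4, 2010109A12Rik and 4930447F24Rik lay near the filter value of 5.75, where array values are least certain.

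**Figure D4:**
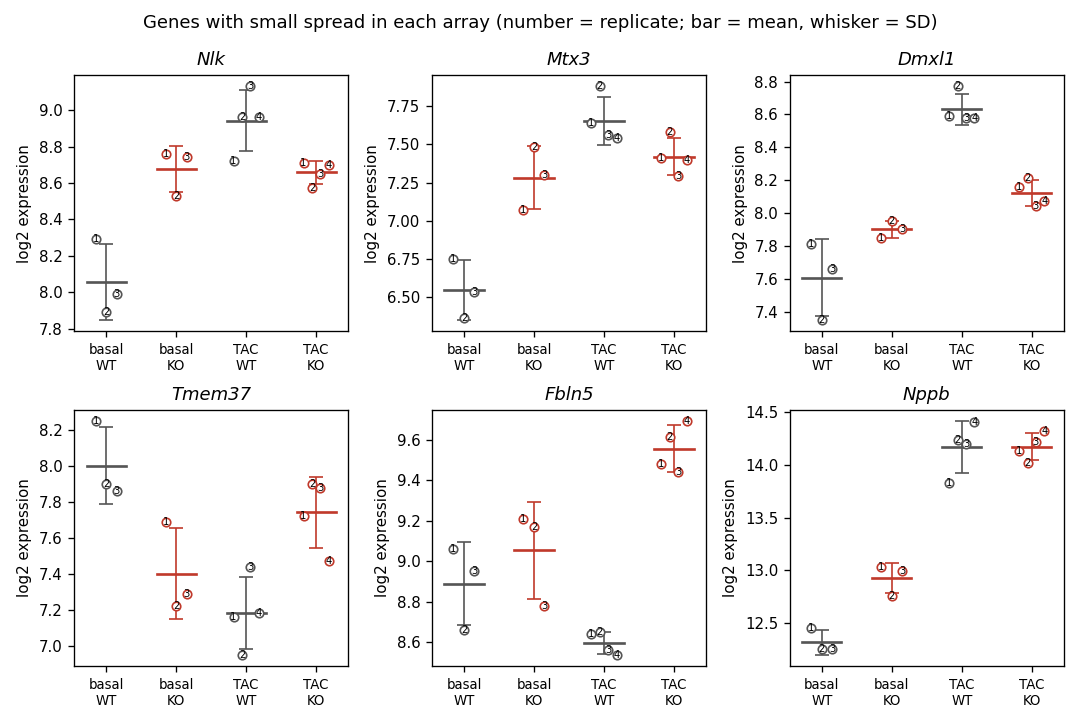
Log2 expression in each array by group of Nlk, Mtx3, Dmxl1, Tmem37, Fbln5 and Nppb, where points carry the replicate number, bars are means and whiskers SD (3 basal and 4 TAC arrays a group). KO lies above WT in basal hearts and below WT after TAC for Nlk and Dmxl1, the reverse holds for Tmem37, and KO and WT of Nppb differ in basal hearts but not in their mean after TAC.

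Hypertrophy genes had differences on both sides of 0. Of 24 measured, 2 (8.33%, near the 4.77% of all genes) had negative values at an unadjusted p under 0.05, and the median was -0.12 with quartiles of -0.57 and 0.35. Nppb, which encodes the natriuretic peptide BNP, read 12.45, 12.25 and 12.25 in basal WT, 13.03, 12.76 and 12.99 in basal KO, 13.83, 14.24, 14.20 and 14.41 in TAC WT and 14.13, 14.02, 14.22 and 14.32 in TAC KO. KO was above WT in all basal arrays and mixed with WT after TAC. Its difference was -0.61 (SE 0.19, unadjusted p = 0.00668, limma), of which 0.61 was the basal KO effect and 0.00 the KO effect after TAC.

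Acta1, skeletal alpha-actin, a fetal isoform of the stressed heart, read 13.03, 11.22 and 12.58 in basal WT, 13.59, 13.93 and 13.30 in basal KO, 14.07, 14.19, 13.85 and 14.09 in TAC WT and 14.03, 13.65, 14.08 and 13.84 in TAC KO. As for Nppb, the groups were apart in basal hearts and overlapped after TAC. Its difference was -1.48 (SE 0.44, unadjusted p = 0.00517, limma), and -0.95 without basal WT 2, its lowest array. The atrial natriuretic peptide gene Nppa had 0.34 (SE 0.47), the adult myosin gene Myh6 -0.04 (SE 0.15) and the fetal myosin gene Myh7 0.47 (SE 0.83). Myh7 read 13.28, 13.19, 10.24 and 13.21 in TAC WT, so TAC WT 3 alone lay at the basal level, and without it the difference was -0.28. Of 26 adult contractile and calcium handling genes and of 15 potassium channel genes, 0 reached an unadjusted p under 0.05.

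Mitochondrial ribosomal proteins had 6 negative and 0 positive members among 72 at an unadjusted p under 0.05, with a median of -0.13. Their negative share of 8.33% is near the 4.77% of all genes, and only 2 members were negative at that level after either quantile normalization. At any p, 59 of the 72 lay below 0 and 13 above, against 6683 below among all 12261 genes. Below 0 were 45 after either quantile normalization. Mrpl1, of the large subunit, read 7.88, 8.10 and 7.85 in basal WT, 8.26, 8.36 and 8.0 in basal KO, 8.47, 8.44, 8.11 and 8.72 in TAC WT and 7.80, 7.78, 7.88 and 8.06 in TAC KO. After TAC every KO array was below every WT array, while basal groups overlapped. Its difference was -0.82 (SE 0.20, unadjusted p = 0.00119, limma), and -0.25 (SE 0.20) on its other kept probe set. Mrpl19 (-0.54, SE 0.17), Mrpl18 (-0.45, SE 0.17) and Mrpl47 (-0.47, SE 0.19) had KO effects of -0.42 to -0.45 after TAC and 0.03 to 0.12 in basal hearts. Of the mitochondrial regulators the coactivator gene Ppargc1b (-0.49, SE 0.18) and the DNA helicase gene Twnk (-0.44, SE 0.20) were at an unadjusted p under 0.05 among 23 (8.70%). None of 33 complex I, 39 complex II to V, 29 fatty acid oxidation, 20 TCA cycle and 20 glycolysis genes reached it.

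Cytokine-response genes with positive values drew on the basal comparison. Of 29 STAT3 and acute phase targets 3 were positive at an unadjusted p under 0.05 against 2.99% of all genes, and the median was 0.20. Cebpd, a transcription factor downstream of STAT3, read 10.77, 11.37 and 11.37 in basal WT, 10.02, 9.96 and 9.49 in basal KO, 9.58, 10.42, 10.62 and 10.59 in TAC WT and 10.41, 10.00, 10.08 and 9.82 in TAC KO. KO was lower than WT in every basal array and mixed with WT after TAC. Its difference was 1.12 (SE 0.35, unadjusted p = 0.00692, limma). The lipopolysaccharide co-receptor gene Cd14 (1.19, SE 0.49) and the metallothionein gene Mt2 (1.18, SE 0.51) also had negative basal KO effects, of -0.94 and -1.04. Mt2 read 10.08, 11.96 and 11.55 in basal WT against 10.10, 10.58 and 9.80 in basal KO, so its basal groups overlapped. Cd14 read 8.40, 9.86 and 8.59 in basal WT, and its difference ran from 0.73 to 1.48 with arrays left out. Stat3 itself had -0.17 (SE 0.18, 95% interval -0.56 to 0.22).

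In nitric oxide and cyclic GMP signalling 2 of 14 genes (14.3%) were positive at an unadjusted p under 0.05, against 2.99% of all genes. Nos1, the neuronal synthase, read 6.45, 6.72 and 6.54 in basal WT, 6.37, 6.35 and 6.38 in basal KO, 6.23, 6.33, 6.22 and 6.31 in TAC WT and 6.49, 6.55, 6.51 and 6.32 in TAC KO. KO was below WT in every basal array, and after TAC only 1 KO array lay inside the WT range. Its difference was 0.40 (SE 0.13, unadjusted p = 0.00888, limma). Ddah2, which degrades an inhibitor of the synthases, had 0.34 (SE 0.15), with 9.11, 9.21, 9.10 and 9.08 in TAC KO above 8.71, 8.80, 8.68 and 8.82 in TAC WT. The endothelial synthase gene Nos3 had 0.18 (SE 0.17), and the inducible Nos2 was below the filter.

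Matrix genes had 2 positive members among 42 at an unadjusted p under 0.05 (4.76%, near the 2.99% of all genes), Eln, the elastin gene (0.67, SE 0.24), and Thbs2, a matricellular protein gene (0.51, SE 0.21), with a median of 0.22. The other kept probe sets of Thbs2 gave 0.84 (SE 0.18) and 0.30 (SE 0.20), so its probe sets disagree in size. On that with 0.84 the KO effect after TAC was 0.88 (adjusted p = 0.026 over all probe sets, limma). Eln read 9.05, 8.72, 8.99 and 9.35 in TAC KO against 8.04, 8.13, 7.65 and 8.28 in TAC WT, with no overlap, as in Fbln5. Its KO effect was 1.0 after TAC and 0.34 in basal hearts. Cell cycle genes had 2 of 38 (5.26%, also near that share), the spindle factor gene Tpx2 (0.74, SE 0.25) and the kinetochore gene Cenpf (1.19, SE 0.53), with a median of 0.235. Of the 38, 30 lay above 0 and 8 below. The other kept probe sets of Tpx2 gave 0.65 (SE 0.61) and 0.51 (SE 0.18). That with 0.65 read 4.15, 4.67, 6.79 and 5.78 in TAC WT, and the one used 5.73, 5.64, 5.28 and 5.63. Cenpf read 7.25, 9.02 and 8.22 in basal WT, and its difference ran from 0.76 to 1.65 with arrays left out. The cell cycle mean of TAC WT 3, at 8.56, lay above the TAC KO range of 7.30 to 7.81, and that of TAC WT 1, at 6.20, near the basal arrays.

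Single negative members of other lists at an unadjusted p under 0.05 were the immediate early gene Jun (-1.33, SE 0.45), the autophagy gene Atg5 (-0.40, SE 0.17) and the endothelial gene Tie1 (-0.50, SE 0.21). Their shares were 3.85% of 26, 3.45% of 29 and 5% of 20 genes, near the 4.77% of all genes. Positive ones were the clock gene Per3 (0.77, SE 0.34), the ribosomal protein gene Rps14 (0.30, SE 0.13), the endothelial gene Sox17 (0.71, SE 0.26) and the T cell gene Cd8a (0.41, SE 0.16). Their shares were 5.88% of 17, 2.27% of 44, 5% of 20 and 14.3% of 7 genes, against 2.99% of all genes. Of the 44 cytosolic ribosomal protein genes 41 lay above 0 and 3 below, against 5570 above among all 12261 genes, and their median was 0.15. Above 0 were 41 after either quantile normalization and 38 after median centring. Other kept probe sets of Per3 gave 0.09 to 0.45, and the other probe sets of Cd8a lay under the filter. Jun read 10.46, 9.91 and 11.07 in basal KO and 10.10, 8.74 and 9.96 in basal WT, with basal KO 1 and KO 3 highest as for Hspa1a. The 22 antioxidant genes and the 20 chemokines and receptors had 0 members at an unadjusted p under 0.05. The same held for markers of neutrophils (5 measured), fibroblasts (19), smooth muscle and pericytes (15), adipocytes (5), epicardium (8) and erythroid cells (1). Of 7 skeletal muscle markers and 12 ventricular cardiomyocyte markers 1 each was negative at an unadjusted p under 0.05, Acta1 (14.3%) and Nppb (8.33%), against 4.77% of all genes.

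**Figure D5:**
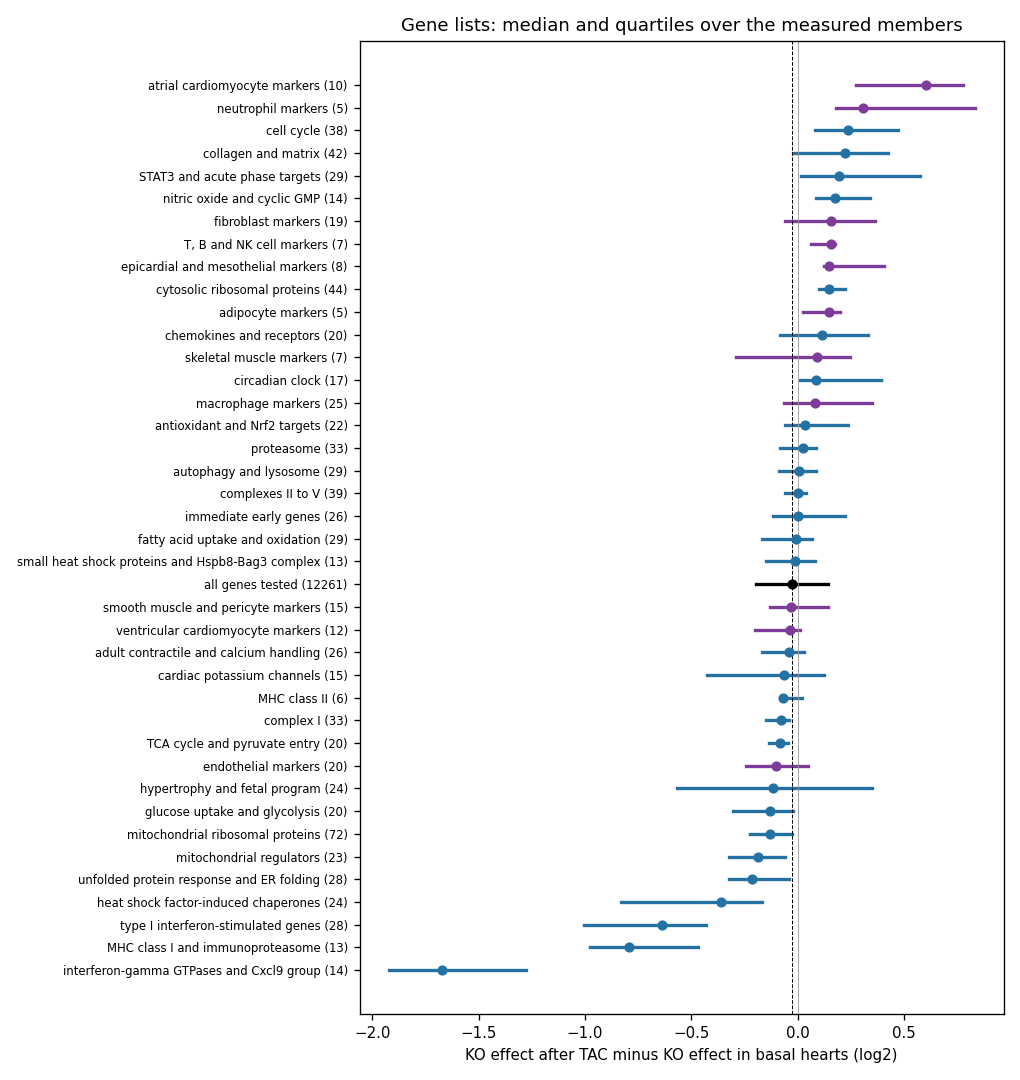
Median (point) and quartiles (bar) of the difference over the measured members of each gene list with at least 5 (number in parentheses), with cell type markers in purple, other lists in blue and all 12261 genes in black. The interferon-gamma group lies lowest at -1.67, followed by MHC class I at -0.79, type I interferon genes at -0.64 and chaperones at -0.36, and atrial markers lie highest at 0.61, against -0.0275 over all genes.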

How the data were processed

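Left ventricular RNA of 14 mouse samples, grouped by sample title, was measured on arrays. The authors made the log2 probe set values with RMA, per the submitters' processing notes. The RMA version and the set of arrays it was run on are not given in the sources used. Probe sets with 1 gene symbol (34958 of 45101) were matched to RefSeq genes (34754 by gene number, 1 by accession, 203 unmatched). A probe set was kept if it exceeded the median of the table, 5.75, in at least 3 arrays, and the kept probe set with the highest mean stood for its gene. A model of the 4 groups was fitted in R 4.3.3 with limma 3.58.1 (10 residual and 3.43 prior degrees of freedom), with Benjamini-Hochberg adjustment over 12261 genes and a threshold of 0.05, after being tested on simulated data. SE is the model's standard error.

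The contrast, the 40 gene lists and the named genes were chosen with earlier results of these data known. Lists are described by counts and medians only. Named genes were Hspb8, the 10 with the smallest p in each direction, Stat3, Nos2, Nos3, Bag3, Nppa, Nppb, Myh6, Myh7, and the leading members of each list by p (at most 4). Igtp, Cxcl9, Cxcl10, Irf8, Trim30a, Ifi47, Tap1, B2m, Hspa1a, Hspe1, Hspd1, Mef2c, Tsc1, Hdac9, Pam, Hddc3 and Ptn were added after their values were seen. Alternatives covered the filter, the probe set rule, scaling, eBayes priors, weights of arrays, a block for replicate number, the threshold and leaving out each array. Array number limits the precision. Raw intensities were not used here. One of the genes with the smallest p is not reported here.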

Additional observations from a re-analysis of the deposited data

Results flagged for a closer look

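In groups of 4 arrays, an array was singled out when its gap to the nearest other exceeded Dixon's 95% critical share of the group's range. Chance flags about 1 in 20 groups, and 12 of 182 were singled out, 7 in TAC WT and 5 in TAC KO.

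TAC WT 4 stood below the rest of its group in Psmb9 (7.13, nearest 8.53), Psmb10 (9.87, nearest 10.39), Tap1 (6.27, nearest 7.89), the mean of the MHC class I and immunoproteasome list (8.615, nearest 9.585) and Trim65 (5.46, nearest 5.83). TAC WT 3 stood below its group in Myh7 (10.24, nearest 13.19) and TAC WT 2 above it in Dmxl1 (8.77, nearest 8.59). TAC KO 3 was low in Gbp2 (7.88, nearest 8.24) and Tap2 (7.0, nearest 7.19). TAC KO 2 was low in Mrpl47 (9.61, nearest 9.83), high in Hddc3 (7.54, nearest 5.39) and high in Ptn (9.14, nearest 7.61).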

How the results depend on the processing

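No gene passed in the difference under 28 of 33 alternatives. The exceptions were array weights (203 genes, with a weight of 0.187 for TAC WT 3 and 4.73 for TAC KO 3), leaving out arrays (0 to 8), and leaving out TAC WT 4 with basal KO 1 (3), a setting chosen, like the other left-out pair, after seeing the data. Genes passing for KO after TAC numbered 0 to 107 with arrays left out, 77 without TAC WT 3 and basal KO 3, 23 without TAC WT 4 and basal KO 1, 2884 with array weights, 0 with weights by group, 5 with the mean of probe sets, 6 with every probe set, 3 without probe sets that can bind other transcripts and 2 after quantile normalization. In basal hearts they numbered 5 with either weighting, 2 with every probe set, and 1 with the mean or without such probe sets. Same-numbered arrays were not treated as pairs in the main model. Their r of deviations was 0.594 and 0.489 for TAC numbers 1 and 4, and -0.0719 to 0.0729 for the others. Of 14 arrays 6 were closest to their own number, so pairing is not settled by the data. With the replicate block, within or across conditions, KO after TAC had 0 genes and the difference 0.

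At an unadjusted p under 0.05, counts were 693 negative and 797 positive with no filter, 454 and 112 with a stricter one, 1117 and 573 with every probe set, 1661 and 1216 with array weights and 229 positive after median centring. With arrays left out they were 411 to 797 negative and 274 to 597 positive. The interferon-gamma median was -2.48 with array weights and -2.26 to -1.26 with arrays left out. Its count was 3 to 12 with arrays left out, and 6 without TAC WT 3 and basal KO 3. Leaving out arrays gave 2 to 9 MHC class I and 4 to 21 type I genes. MHC class I had 4 after quantile normalization, over all arrays or within conditions. Type I genes numbered 7 with the stricter filter, 18 with every probe set and 17 with array weights. Chaperones numbered 13 with every probe set and 11 with array weights. Without TAC WT 3 and basal KO 3 the counts were 3 MHC class I, 5 type I and 3 chaperone genes, and type I had 22 without TAC WT 4 and basal KO 1. The causes were not tested.

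Of 2588 values of 87 named genes, 2521 kept direction and call, 48 passed the threshold and 19 turned sign. With arrays left out, the difference ran from -0.18 to 0.32 for Trim30a, -0.13 to 0.37 for Irf8, -0.28 to 0.79 for Myh7, -0.12 to 0.022 for Myh6 and -0.032 to 0.66 for Nppa. Other sign changes were Trim30a (-0.31 with the mean of probe sets, -0.28 without TAC WT 4 and basal KO 1), Myh7 (-0.18 with array weights, -0.29 without TAC WT 3 and basal KO 3), Myh6 (0.0013 and 0.0018 after quantile normalization, over all arrays and within conditions) and Nos3 (-0.047 with array weights).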

Other observations

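The largest negative difference by size was that of Hddc3, a nucleotide hydrolase gene, at -2.81 (SE 0.75). It read 5.81, 5.52 and 5.84 in basal WT, 7.41, 7.17 and 5.33 in basal KO, 7.88, 7.65, 7.94 and 7.70 in TAC WT and 5.38, 7.54, 5.26 and 5.39 in TAC KO. The arrays fell into a high level above 7 and a low level under 6 with none between, and all TAC WT arrays, 2 basal KO arrays and 1 TAC KO array had the high level. Its other probe set, under the filter, gave 0.32 (SE 0.25).

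Ptn, which encodes the growth factor pleiotrophin, had a positive difference of 2.06 (SE 0.55). It read 5.16, 4.97 and 4.71 in basal WT, 4.66, 5.31 and 4.59 in basal KO, 5.36, 5.86, 6.78 and 5.95 in TAC WT and 7.61, 9.14, 7.56 and 7.50 in TAC KO. Every TAC KO array was above every other array, and both basal groups lay below the filter value of 5.75, so the size of the basal effect is uncertain. Another kept probe set gave 1.19 (SE 0.33), with a KO effect after TAC of 1.81 that passed over all probe sets.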
